A study of Mus musculus with 10 samples.

Results

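The copying of DNA in S phase was followed through 42 genes of the replication machinery and its supply, from the loading of the helicase at origins to the packaging of new DNA. They were chosen as a list of gene names: a gene entered when a probe set of the array named its symbol and no other, and a gene with several probe sets was represented by the one with the highest mean over the 10 arrays. All 42 were measured, out of 19938 genes in all. The arrays hold RNA from the forebrains of 10 mouse embryos at E12.5, of CD1/NMRI mixed background. In the 5 transgenic embryos (dtg in the titles) a permanently active allele of FoxO3, a transcription factor restrained by insulin signalling, was driven by the CaMKIIa promoter. The other 5 embryos (stg) are labelled as controls, and the labels neither spell out these abbreviations nor state if a transgene is present in the controls. The embryos came from 2 dams that are not assigned to embryos, so litter could not be included in any test, and the p-values measure the spread between these embryos. Each embryo gave 1 array, which held RNA from one side of its forebrain (the other side was kept for luciferase activity), and the number of arrays limits the precision.

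Before a cell divides, the origin recognition complex and its helpers Cdc6 and Cdt1 load the Mcm2 to Mcm7 helicase onto DNA. Cdc45 and the GINS complex then switch the helicase on, and primase and the polymerases copy the strands behind it. E2F transcription factors turn on many of these genes at the entry into S phase, and cyclin E drives that entry. In the forebrain at this stage the cycling cells are the progenitors along the ventricles, while the neurons they produce no longer copy their DNA. In RNA from whole tissue, fewer cycling cells and less of each transcript per cycling cell cannot be told apart.

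The start regions of the genes were searched for letters that E2F factors are known to bind. The search ran on both strands for TTTCCCGC, TTTCGCGC, TTTGCCGC and TTTGGCGC in the RefSeq promoters of GRCm38.p6. These run from 250 bases before to 50 bases after a start of the gene, which need not be its outermost one. A promoter was at hand for 34 of the 42 genes, and 13 of these held at least 1 such match (38.2%), against 704 of 27025 genes with a promoter (2.60%). The genes with a match were Orc1, Cdc6, Cdt1, Mcm3, Mcm5, Mcm6, Mcm7, Gins3, Pola1, Pold1, Rfc3, Lig1 and Uhrf1. None of the 5 nucleotide supply genes had one. Matches to the FOXO letters GTAAACA were found in 2 of the 34 genes, Mcm7 and Cdc45 (5.88%, against 4.05% of all genes). No promoter was at hand for Mcm4, Gins1, Gins2, Gins4, Pole, Prim2, Rfc2 and Ccne2, so these were not searched. The promoter of Pola1 is shown because it is the one with a match found among the genes given below in every embryo. Those of Mcm5 and Mcm6 were added after the matches were seen, because there matches on opposite strands overlap. Capitals mark the E2F matches, 5′ to 3′ along the gene. The Pola1 promoter lies at chrX:93632106-93632405 on the minus strand, that of Mcm5 at chr8:75109259-75109558 on the plus strand and that of Mcm6 at chr1:128359656-128359955 on the minus strand.
Pola1: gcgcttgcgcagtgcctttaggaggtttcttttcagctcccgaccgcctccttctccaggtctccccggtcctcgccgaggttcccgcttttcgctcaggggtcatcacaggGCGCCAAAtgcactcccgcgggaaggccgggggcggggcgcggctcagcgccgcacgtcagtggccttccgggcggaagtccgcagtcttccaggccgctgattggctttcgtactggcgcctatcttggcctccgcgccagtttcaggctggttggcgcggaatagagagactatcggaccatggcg
Mcm5: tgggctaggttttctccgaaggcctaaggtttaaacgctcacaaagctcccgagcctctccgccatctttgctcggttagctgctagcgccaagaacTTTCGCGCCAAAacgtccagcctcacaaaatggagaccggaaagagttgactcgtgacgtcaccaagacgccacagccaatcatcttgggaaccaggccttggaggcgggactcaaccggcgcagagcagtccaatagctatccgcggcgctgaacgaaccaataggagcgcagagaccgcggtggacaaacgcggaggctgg
Mcm6: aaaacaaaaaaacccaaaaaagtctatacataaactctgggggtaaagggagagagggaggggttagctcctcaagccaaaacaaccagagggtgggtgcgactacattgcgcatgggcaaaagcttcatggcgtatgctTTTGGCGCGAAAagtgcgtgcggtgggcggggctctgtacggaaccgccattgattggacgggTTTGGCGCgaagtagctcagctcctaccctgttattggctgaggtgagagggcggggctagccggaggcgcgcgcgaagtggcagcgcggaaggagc
In Mcm5 the overlapping pair spans bases 153 to 142 before the start that the promoter uses. In Mcm6 it spans bases 110 to 99 before the start, with a further match nearer to it. The annotated Pola1 gene reaches to chrX:93632387, so its match lies within the gene. A match is a description of these letters and does not show that a factor binds there.

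Control embryo 5 stood apart from the other arrays. Its mean Pearson correlation with them over all genes was 0.985, against 0.992 to 0.993 for the other arrays. Forebrain transcription factor genes (Emx1, Emx2, Lhx2, Six3, Otx2 and Pax6) read between 5.85 and 9.46 on the log2 scale in transgenic and between 5.66 and 9.95 in control embryos. They did not differ alike between the groups: Otx2 differed by 0.87 ± 0.23, with all 5 transgenic embryos above all controls (limma adjusted p = 0.247), Pax6 by 0.22, with 4 above, and Emx1 by -0.37, with the groups overlapping. The midbrain and hindbrain genes En1, En2, Hoxa2, Hoxb2 and Egr2 lay between 3.27 and 4.82 in transgenic and between 3.35 and 4.85 in control embryos, under the array medians of 5.36 to 5.39. The sixth gene of that list, Gbx2, which is also among the thalamus genes, read 6.72, 6.69, 6.98, 5.45 and 6.41 in transgenic embryos 1 to 5, against 5.53, 5.80, 5.65, 6.38 and 5.66 in control embryos 1 to 5. It thus lay above the array medians in all 10, with 4 transgenic embryos above all controls and a difference of 0.65 ± 0.25 (limma adjusted p = 0.594). Foxo3 itself read 6.95, 7.13, 7.10, 6.76 and 6.96 in transgenic embryos 1 to 5, against 6.50, 6.61, 6.59, 6.65 and 6.87 in control embryos 1 to 5, a difference of 0.34 ± 0.085 (SE, n = 5 per group; limma adjusted p = 0.218). Camk2a, the gene whose promoter drove the transgene, read 5.90, 5.73, 6.02, 5.89 and 6.07 in transgenic embryos 1 to 5, against 6.42, 6.42, 6.01, 6.15 and 6.16 in control embryos 1 to 5, a difference of -0.31 ± 0.092 (limma adjusted p = 0.391). Foxo3 was above all controls in transgenic embryos 1, 2, 3 and 5, and Camk2a was below them in 3 transgenic embryos. Whether the Foxo3 probes cover the transgene is not given in the sources used here, so this level need not represent its product.

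Replication genes read lower in the transgenic group almost throughout, by small amounts. Of the 42 genes 41 had a lower mean in transgenic embryos, against 51.9% of all genes, and the median log2 difference was -0.16, or 0.893-fold, against -0.0038 over all genes. No single gene passed the test. In limma, a linear model fitted to every gene and adjusted over all genes by Benjamini and Hochberg, 0 of the 42 reached an adjusted p of 0.05, where 0.105% of all genes did, and the smallest adjusted p was 0.598. By the unadjusted p, 8 of the 42 lay under 0.05, where 7.58% of all genes did. All 8 were lower in transgenic embryos, and 3.48% of all genes were lower at that level. Standard errors of the 42 differences ran from 0.065 to 0.16, so a p that missed the threshold does not show equal levels. The groups overlapped in all 42 genes, while 0.622% of all genes lay wholly lower in the transgenic embryos.

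**Figure D1:**
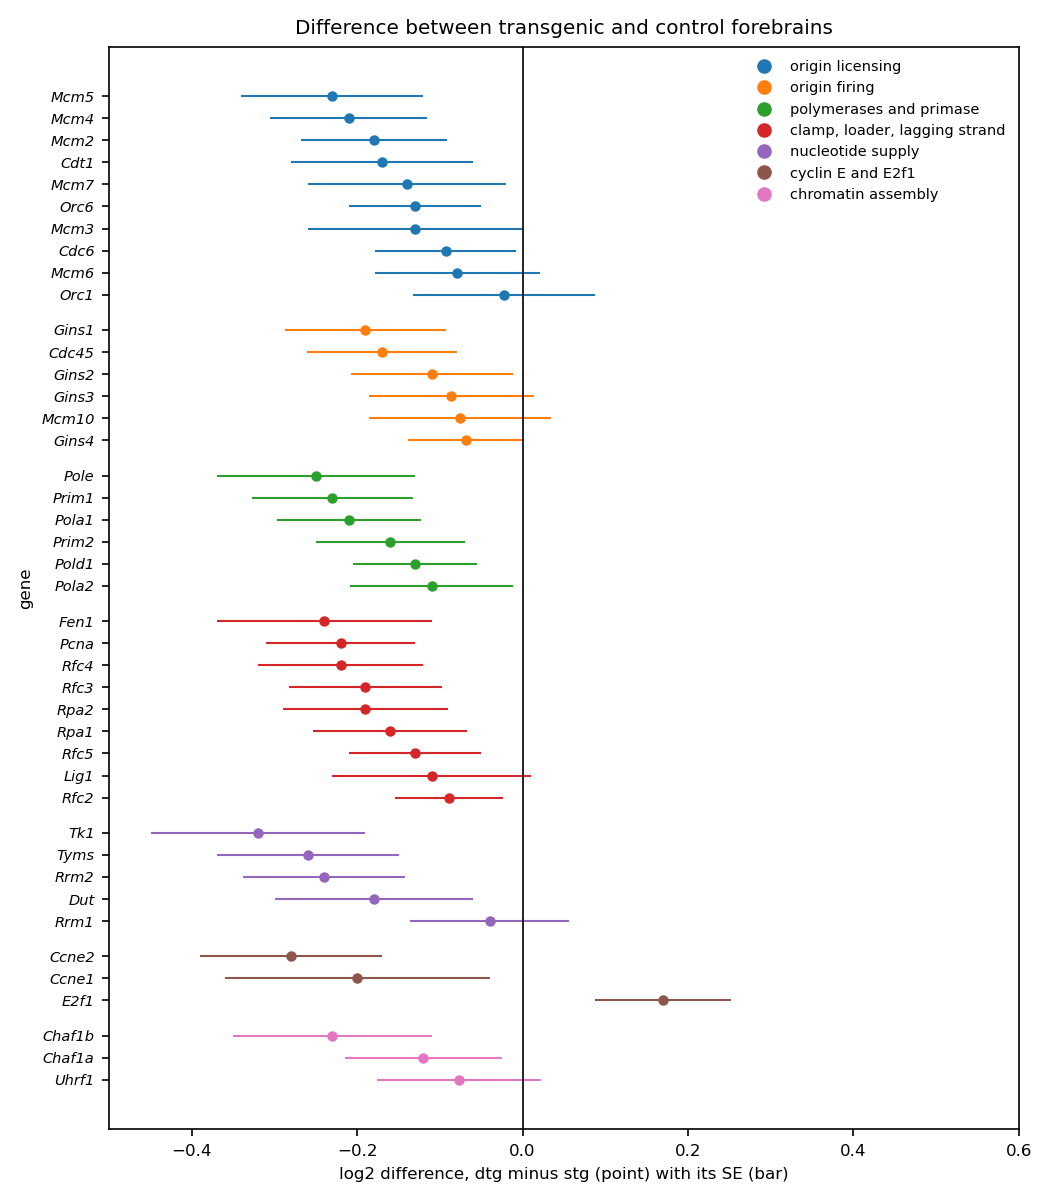
Log2 difference in intensity between transgenic (dtg) and control (stg) forebrains for each of the 42 replication genes, with points for the difference, bars for its standard error (n = 5 per group) and colours for the role. All points but that of E2f1, at 0.17, lie left of 0, and the lowest is Tk1 at -0.32.

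The transgenic embryos did not contribute alike to the differences, and control embryo 5, described below, contributed as well. In transgenic embryo 1, 40 of the 42 genes lay below all 5 controls, where 20.0% of all genes did, and in transgenic embryo 3 the count was 38 (background 19.9%). Transgenic embryo 5 had 16 such genes (background 18.6%), transgenic embryo 2 had 7 (14.7%) and transgenic embryo 4 had 0 (15.5%). The median deviation of the 42 genes from the control mean was -0.42 in transgenic embryo 1, -0.047 in embryo 2, -0.37 in embryo 3, 0.050 in embryo 4 and -0.084 in embryo 5. Transgenic embryos 1 and 3 were thus low in the whole set, while embryo 4 was above the control mean in 32 of the 42 genes and above all controls in 5 (background 12.9%). In 34 genes these embryos 1 and 3 were the lowest pair of all 10. The shares of all genes with this lowest pair, or above the control mean in embryo 4, were not computed.

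The controls were less spread, apart from embryo 5. The median deviation was -0.064, -0.045, -0.020 and -0.046 in control embryos 1 to 4, and 0.17 in control embryo 5. In that embryo 36 of the 42 genes lay above the other 4 controls (background 26.6%), and 32 were higher than in any other embryo. The share of all genes that were highest in control embryo 5 was not computed. The mean log2 level of the 42 genes was 7.54, 7.89, 7.59, 8.0 and 7.86 in transgenic embryos 1 to 5 and 7.86, 7.89, 7.91, 7.89 and 8.11 in control embryos 1 to 5. Its SD was 0.20 among transgenic and 0.10 among control embryos.

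**Figure D2:**
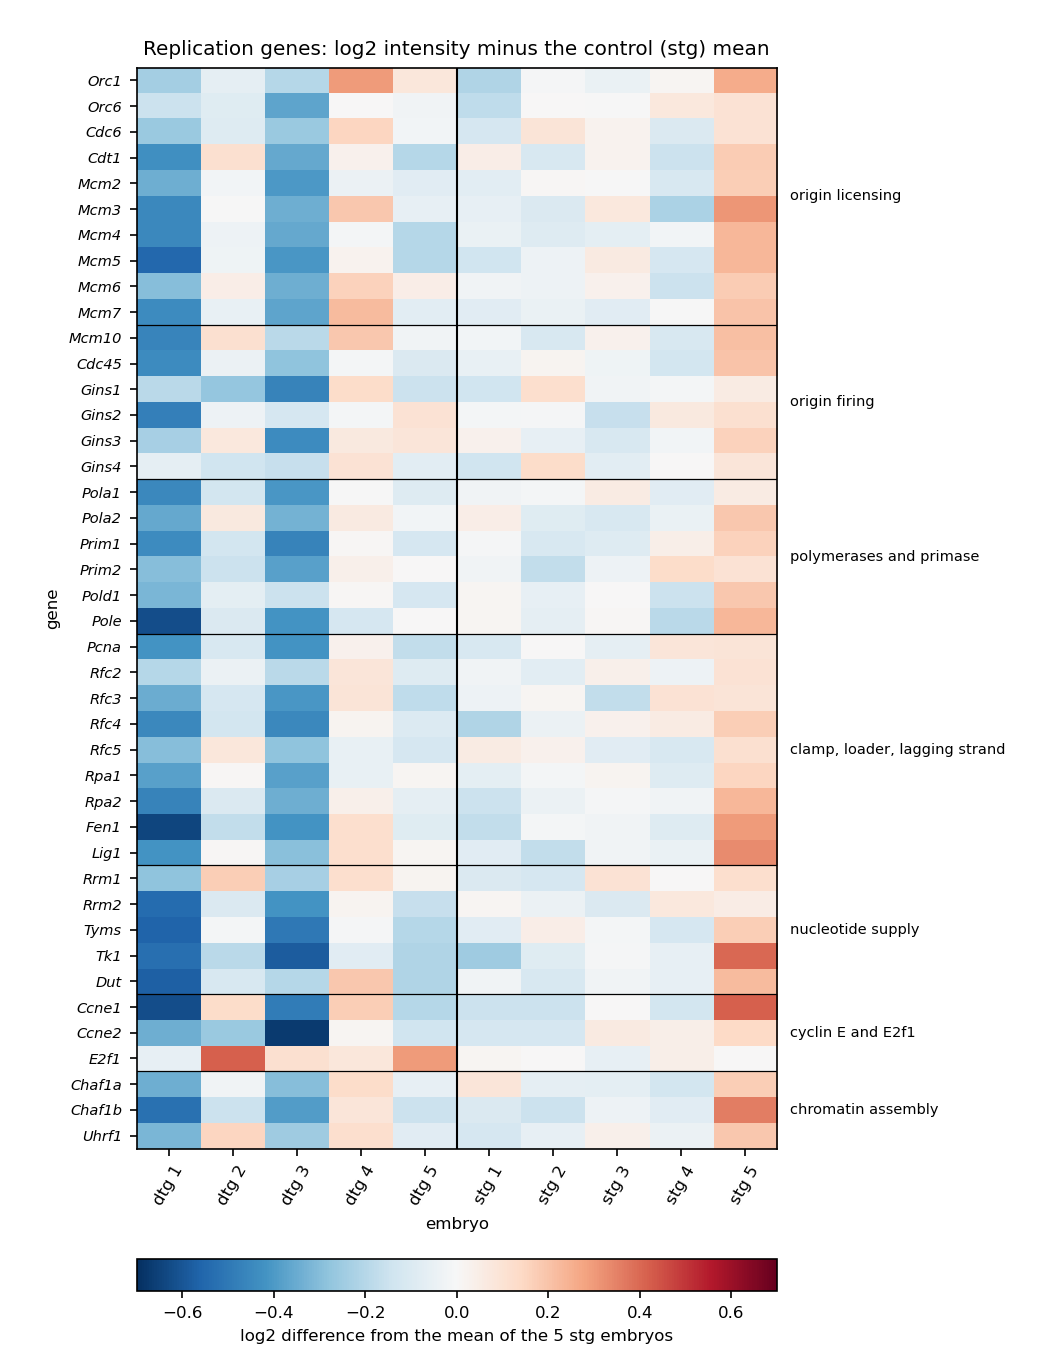
Log2 intensity of each replication gene (rows, by role) in each embryo (columns, dtg left of stg) minus the mean of the 5 control embryos, with blue for lower and red for higher. The columns of transgenic embryos 1 and 3 are blue almost throughout (medians -0.42 and -0.37), that of control embryo 5 is red (median 0.17), and the row of E2f1 differs from the others.

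Leaving out single embryos moved the size of this difference and kept its sign. The median difference was -0.10 without transgenic embryo 1 and -0.12 without transgenic embryo 3, and 38 genes were lower in each of these fits. It was -0.12 without control embryo 5, with 40 genes lower. Without transgenic embryo 4 it was -0.21. The count of genes with an unadjusted p under 0.05 was 1 without transgenic embryo 1, 0 without transgenic embryo 3, 0 without control embryo 5, and 13 and 21 without transgenic embryos 2 and 4. The share of all genes under that p was not computed for these fits, so these counts have no background beside them. No gene of the 42 reached an adjusted p of 0.05 in any of the 10 fits.

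**Figure D3:**
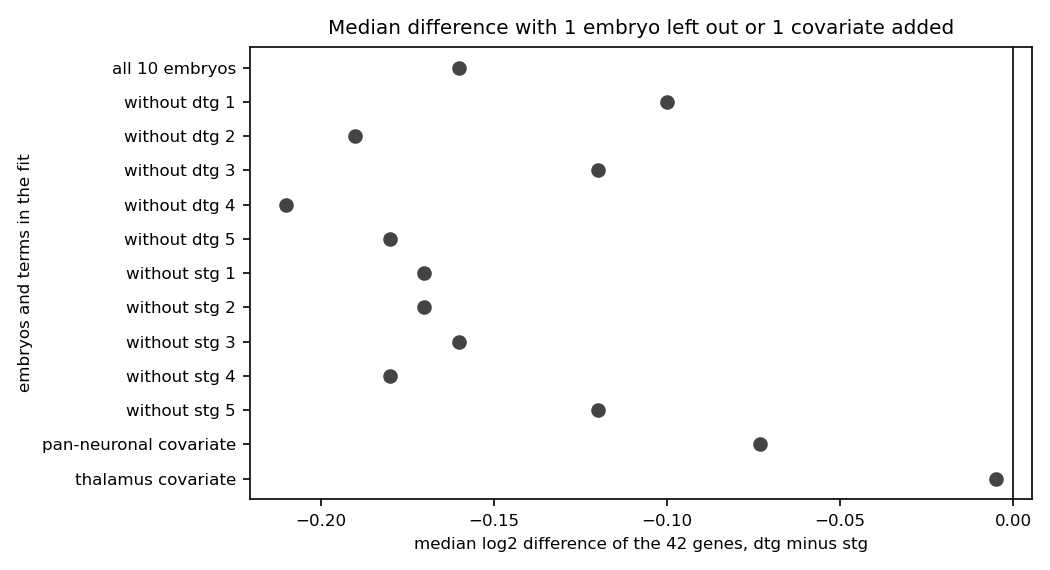
Median log2 difference (dtg minus stg) of the 42 replication genes with all 10 embryos, with each embryo left out in turn, and with the mean of the pan-neuronal or the thalamus list as a covariate. It lies between -0.21 and -0.10 over the leave-one-out fits and at -0.0048 with the thalamus covariate. Both covariates themselves differ between the groups, so these fits cannot tell group and covariate apart.

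Lists of other cell types also varied between these embryos. The mean of 15 radial glia genes, which mark a type of progenitor, was lowest in transgenic embryos 1 and 3, at 8.72 and 8.73. It was highest in control embryo 5, at 8.98. It ran from 8.72 to 8.87 in transgenic embryos, with 3 of them below all controls, against 8.86 to 8.98 in controls. Of these genes 10 were lower in the transgenic group and 5 higher, where 51.9% of all genes were lower. Id4, a regulator of neural progenitors, lay below all controls in all 5 transgenic embryos, as 0.622% of all genes did. Its difference was -0.33 ± 0.075 (limma adjusted p = 0.196). Pax6, of the same list, went the other way by 0.22 ± 0.064, with 4 transgenic embryos above all controls (limma adjusted p = 0.38). The mean of 9 genes of another type, the intermediate progenitors, ran from 7.46 to 7.61 in transgenic and from 7.41 to 7.55 in control embryos. Of these genes 3 were lower and 6 higher in the transgenic group, with a median difference of 0.062. Among them Eomes differed by -0.58, Btg2 by 0.21, Dll3 by 0.34 and Neurog2 by 0.21. The part of either progenitor type in the difference of the replication genes was not tested. The mean of 19 pan-neuronal genes was 8.81 and 8.80 in transgenic embryos 1 and 3, the highest of all 10, and ran from 8.19 to 8.81 in transgenic embryos, against 7.29 to 8.52 in controls. Its lowest value, 7.29, was that of control embryo 5, whose replication genes were the highest. Genes of the thalamus had a list mean of 6.46 to 7.46 in transgenic embryos, against 5.59 to 6.93 in controls. All 10 of these genes read higher in the transgenic group. The thalamus mean was 7.33, 7.36 and 7.46 in transgenic embryos 1 to 3, above every control, and of these embryos 1 and 3 were low in replication genes while embryo 2 lay near the control mean. Transgenic embryo 4 had the lowest thalamus mean of the transgenic group, 6.46, and its highest replication mean, 8.0. Control embryo 5 had the lowest thalamus mean of all, 5.59, and the highest replication mean, 8.11. In control embryos 1 to 4 the thalamus mean was 5.75, 5.75, 6.68 and 6.93, and the replication mean 7.86, 7.89, 7.91 and 7.89. Transgenic embryo 5 had a thalamus mean of 6.89 and a replication mean of 7.86.

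With the pan-neuronal mean as a covariate the median difference of the 42 genes was -0.073, with 34 genes lower. With the thalamus mean as a covariate it was -0.0048, with 22 genes lower and 20 higher. Both list means themselves differed between the groups (transgenic against control), at 8.51 against 8.2 for pan-neuronal and 7.1 against 6.14 for thalamus genes. Group and covariate thus overlap, and these fits cannot tell them apart. The 10 mesenchyme genes had a mean of 6.47 to 7.16 in transgenic embryos, against 6.25 to 7.04 in control embryos 1 to 4 and 8.19 in control embryo 5. The 7 erythroid genes had means of 6.79 to 7.65 in transgenic and 6.86 to 8.13 in control embryos, and the 8 endothelial genes of 6.31 to 6.62 in transgenic and 6.28 to 6.81 in control embryos. The part of these cell types in the difference was not tested.

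**Figure D4:**
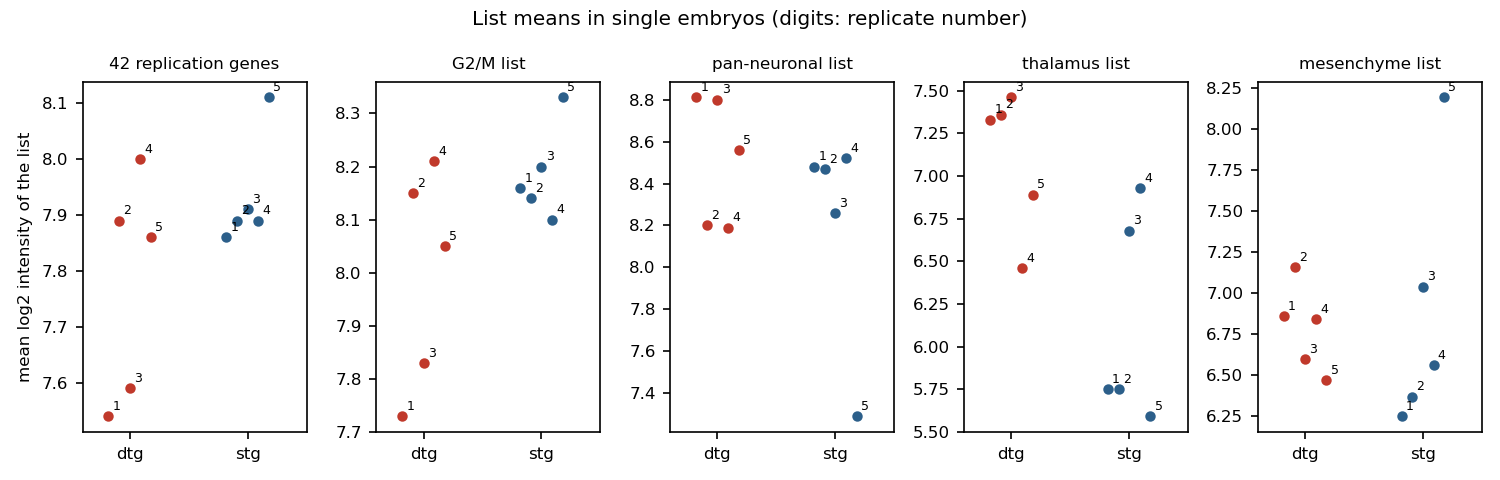
Mean log2 intensity of 5 gene lists in single embryos (dtg left of stg in each panel; digits give the replicate number). Transgenic embryos 1 and 3 have the lowest replication and G2/M means and the highest pan-neuronal means, and control embryo 5 has the highest replication mean (8.11) and the lowest pan-neuronal mean (7.29).

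Origin licensing genes were lower in 10 of 10 cases, with a median log2 difference of -0.14, and 1 of them had an unadjusted p under 0.05. Mcm4, a subunit of the helicase, read 7.79, 8.21, 7.88, 8.23 and 8.04 in transgenic embryos 1 to 5, against 8.20, 8.15, 8.17, 8.22 and 8.47 in control embryos 1 to 5. Transgenic embryos 1, 3 and 5 lay below all controls and embryos 2 and 4 among them, and the difference was -0.21 ± 0.095 (limma adjusted p = 0.649; two-sided exact permutation p = 0.111 with n = 5 embryos in each group). The other helicase subunits differed by -0.18 for Mcm2, -0.13 for Mcm3, -0.23 for Mcm5, -0.079 for Mcm6 and -0.14 for Mcm7. The loaders Cdt1 and Cdc6 differed by -0.17 and -0.093. Of the origin recognition complex, Orc6 differed by -0.13 and Orc1 by -0.023, and the sign of the Orc1 difference turned in several alternative fits.

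Genes that fire the loaded origins were lower in 6 of 6 cases, with a median of -0.097. Gins1, a subunit of the GINS complex, read 7.31, 7.23, 7.03, 7.64 and 7.35 in transgenic embryos 1 to 5, against 7.37, 7.62, 7.48, 7.49 and 7.56 in control embryos 1 to 5. Transgenic embryos 1, 2, 3 and 5 lay below all controls, while embryo 4 lay above them all, and the difference was -0.19 ± 0.097 (limma adjusted p = 0.707; exact permutation p = 0.119, n = 5 per group). The remaining GINS genes differed by -0.11 for Gins2, -0.086 for Gins3 and -0.068 for Gins4. Cdc45, the partner of GINS on the helicase, differed by -0.17, and Mcm10, which helps to activate it, by -0.076.

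The polymerase and primase genes were lower in 6 of 6 cases, with a median of -0.19. Pola1, the catalytic subunit of the polymerase that extends primers, whose promoter is shown above, read 7.54, 7.86, 7.58, 7.98 and 7.90 in transgenic embryos 1 to 5, against 7.96, 7.97, 8.04, 7.91 and 8.04 in control embryos 1 to 5. Only transgenic embryo 4 reached the control range, and the difference was -0.21 ± 0.087 (limma adjusted p = 0.603; exact permutation p = 0.0397, n = 5 per group). Prim1, the catalytic subunit of primase, read 7.95, 8.26, 7.92, 8.40 and 8.27 in the transgenic embryos, against 8.38, 8.28, 8.30, 8.43 and 8.55 in the controls. Here too transgenic embryo 4 alone lay within the control range, with a difference of -0.23 ± 0.097. Pole, the catalytic subunit of the leading-strand polymerase, read 7.35, 7.87, 7.55, 7.85 and 7.98 in the transgenic embryos, against 7.99, 7.91, 7.98, 7.79 and 8.21 in the controls, a difference of -0.25 ± 0.12. Only transgenic embryos 1 and 3 lay below the controls for Pole. Prim2 differed by -0.16, Pola2 by -0.11 and Pold1, of the lagging-strand polymerase, by -0.13.

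Genes of the sliding clamp, its loader and the lagging strand were lower in 9 of 9 cases, with a median of -0.19. Pcna, the clamp that holds polymerases on DNA, read 9.90, 10.21, 9.89, 10.35 and 10.15 in transgenic embryos 1 to 5, against 10.21, 10.32, 10.26, 10.40 and 10.41 in control embryos 1 to 5. Transgenic embryo 2 lay just under the lowest control and embryo 4 among the controls, and embryos 1, 3 and 5 further below, with a difference of -0.22 ± 0.09 (limma adjusted p = 0.618; exact permutation p = 0.0556, n = 5 per group). A second probe set named Pcna had the same difference of -0.22, and whether either also reads a similar copy of the gene is not given in the sources used here. Rfc4, a subunit of the clamp loader, read 7.99, 8.30, 7.99, 8.46 and 8.34 in the transgenic embryos, against 8.22, 8.40, 8.47, 8.49 and 8.61 in the controls. Transgenic embryos 1 and 3 were equal at the bottom and the other 3 lay among the controls, with a difference of -0.22 ± 0.1. The other loader genes differed by -0.089 for Rfc2, -0.19 for Rfc3 and -0.13 for Rfc5. The single-strand binding genes Rpa1 and Rpa2 differed by -0.16 and -0.19. Fen1, which trims the flaps of lagging-strand fragments, differed by -0.24, and Lig1, which seals them, by -0.11.

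Enzymes that supply the building blocks of DNA were lower in 5 of 5 cases, and their median of -0.24 was the lowest of the 7 roles. Tk1, thymidine kinase, read 7.16, 7.50, 7.11, 7.61 and 7.48 in transgenic embryos 1 to 5, against 7.43, 7.60, 7.68, 7.63 and 8.09 in control embryos 1 to 5. Transgenic embryos 1 and 3 lay below all controls and the other 3 among them, and control embryo 5 was far above the rest, with a difference of -0.32 ± 0.13 (limma adjusted p = 0.603; exact permutation p = 0.0714, n = 5 per group). The second probe set named Tk1, which was dimmer, had a difference of -0.22. Rrm2, the regulated subunit of ribonucleotide reductase, read 9.06, 9.50, 9.17, 9.61 and 9.43 in the transgenic embryos, against 9.61, 9.56, 9.50, 9.67 and 9.65 in the controls. Transgenic embryos 1, 3 and 5 lay below all controls, and the difference was -0.24 ± 0.098. Tyms, thymidylate synthase, read 7.51, 8.06, 7.57, 8.06 and 7.87 in the transgenic embryos, against 7.99, 8.12, 8.05, 7.95 and 8.24 in the controls, a difference of -0.26 ± 0.11. The same 3 transgenic embryos lay below the controls for Tyms, while embryos 2 and 4 were among them. Rrm1, the large subunit that pairs with Rrm2, differed by only -0.04 ± 0.096, and Dut, which keeps uracil out of DNA, by -0.18.

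**Figure D5:**
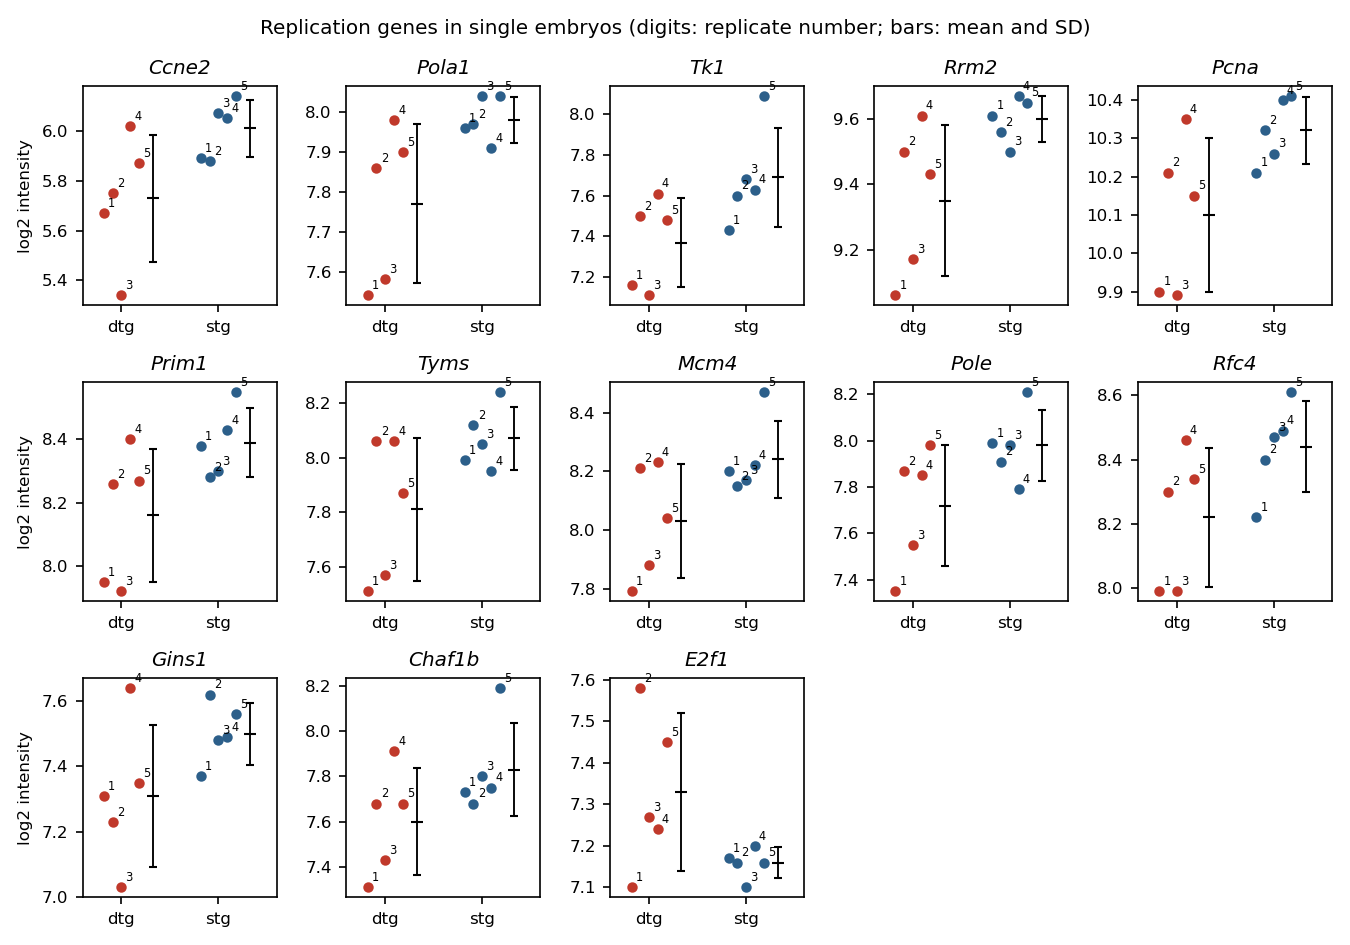
Log2 intensity in single embryos of the 13 replication genes described in every embryo (dtg left of stg; digits give the replicate number, bars the mean and SD, n = 5 per group; the axes do not start at 0). Transgenic embryo 1 lies below all controls in all 13 genes, and transgenic embryo 3 in all of them but E2f1.

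Among the regulators of S-phase entry the differences had both signs. Ccne2, a cyclin E, had the smallest p of the 42 genes and read 5.67, 5.75, 5.34, 6.02 and 5.87 in transgenic embryos 1 to 5, against 5.89, 5.88, 6.07, 6.05 and 6.14 in control embryos 1 to 5. Transgenic embryo 3 was the lowest and embryo 4 lay among the controls, with a difference of -0.28 ± 0.11 (limma adjusted p = 0.598; exact permutation p = 0.0317, n = 5 per group). Ccne1, the other cyclin E, differed by -0.20 ± 0.16. E2f1, a transcription factor that turns on replication genes, was the 1 gene of the 42 with a higher mean in transgenic embryos. It read 7.10, 7.58, 7.27, 7.24 and 7.45 in transgenic embryos 1 to 5, against 7.17, 7.16, 7.10, 7.20 and 7.16 in control embryos 1 to 5. Transgenic embryos 2 to 5 lay above all controls, whose spread was narrow (SD 0.0364), and transgenic embryo 1 lay below them, level with the lowest at the decimals given. The difference of 0.17 ± 0.082 did not pass (limma adjusted p = 0.676; exact permutation p = 0.0714, n = 5 per group), and it stayed between 0.11 and 0.23 when single embryos were left out.

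Genes that package the new strands were lower in 3 of 3 cases, with a median of -0.12. Chaf1b, a subunit of the chromatin assembly factor that follows the fork, read 7.31, 7.68, 7.43, 7.91 and 7.68 in transgenic embryos 1 to 5, against 7.73, 7.68, 7.80, 7.75 and 8.19 in control embryos 1 to 5. Transgenic embryos 1 and 3 were clearly below the controls and embryos 2 and 5 at their lower edge, with a difference of -0.23 ± 0.12 (limma adjusted p = 0.728; exact permutation p = 0.159, n = 5 per group). Chaf1a, its partner, differed by -0.12, and Uhrf1, which helps to copy DNA methylation, by -0.077.

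The deviations of the 42 genes from their group means varied together over the embryos of both groups. The mean pairwise Pearson correlation of these deviations, pooled over both groups, was 0.76, against 0.0070 over all pairs of genes. Among 29 genes of G2 and mitosis it was 0.82, so such covariation was not particular to the 42 genes. These correlations rest on the same 10 arrays and are a description, and none was computed in either group alone. Set against the mean of the other 41, single genes had a median correlation of 0.92, and 34 of the 42 were over 0.80. The highest were Mcm7 and Rpa2 at 0.97, and the lowest were Gins4 and E2f1 at 0.46, followed by Gins1 at 0.61. The median SD within groups was 0.17 for the 42 genes and 0.18 for the G2 and mitosis genes, against 0.12 over all genes. The most variable was Ccne1 at 0.31, and the least variable was Rfc2 at 0.097.

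Other genes around the replication fork were also mostly lower, and their counts stand against 51.9% of all genes lower, 0.105% called and 7.58% with an unadjusted p under 0.05. Of 36 further replication factors 35 were lower and 0 passed over all genes, 8 had an unadjusted p under 0.05 and the median difference was -0.14. Among them Ticrr, which brings Cdc45 to origins, differed by -0.30 ± 0.099, Orc2 by -0.22, Rnaseh2c, of the enzyme that removes ribonucleotides from DNA, by -0.21 and Pold2 by -0.20. Of 19 further nucleotide enzymes 17 were lower, 0 passed and the median was -0.15. An unadjusted p under 0.05 was found for 7 of them, 6 lower and 1 higher. Dck, deoxycytidine kinase, read 7.98, 8.15, 8.15, 8.18 and 8.10 in transgenic embryos 1 to 5, against 8.32, 8.36, 8.27, 8.33 and 8.39 in control embryos 1 to 5. All 5 transgenic embryos lay below all controls, with a difference of -0.22 ± 0.053 (limma adjusted p = 0.205; exact permutation p = 0.00794, n = 5 per group, the smallest this design allows). In the same list Dctd differed by -0.26, Ctps by -0.25 and Shmt2 by -0.29.

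Of 18 genes of the E2F and retinoblastoma network 14 were lower, 0 passed and the median was -0.093, and 4 had an unadjusted p under 0.05. Lin9, of the complex that times cell-cycle genes, read 6.23, 6.25, 6.04, 6.26 and 6.23 in transgenic embryos 1 to 5, against 6.44, 6.28, 6.27, 6.41 and 6.36 in control embryos 1 to 5, again with no overlap and a difference of -0.15 ± 0.060 (limma adjusted p = 0.596). E2f8, a repressor of the family, differed by -0.33, E2f3 by -0.27 and Foxm1, a factor of the later cell cycle, by -0.22. Of 15 replication checkpoint genes 15 were lower with 0 passing, 3 at an unadjusted p under 0.05 and a median of -0.15. Among them were the helicase gene Blm at -0.21, Fancd2 at -0.29, Wee1 at -0.19 and Hus1 at -0.18. Of 12 genes of replication-linked chromatin 12 were lower with 0 passing, 1 at an unadjusted p under 0.05 and a median of -0.12. Among them were Hat1 at -0.28, Hells at -0.26, Rbbp7 at -0.19 and Ezh2 at -0.11. Over these 5 lists 2 of 100 genes, Dck and Lin9, lay wholly below the controls, where 0.622% of all genes did. All 29 genes of G2 and mitosis were lower too, with 0 passing (0.105% of all genes) and a median of -0.18, where 51.9% of all genes were lower. At an unadjusted p under 0.05 were 12 of them, against 3.48% of all genes lower at that level, and examples were Kif23 at -0.24, Aurkb at -0.26, Kif2c at -0.25 and Birc5 at -0.28. Whether S-phase and mitotic genes differed by unequal amounts was not tested.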

How the data were processed

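RNA of 10 forebrains was hybridized to 1 Affymetrix array each. The submitters' processing notes name Affymetrix Expression Console as the software behind the deposited log2 intensities of 35556 probe sets; its version and settings are not given in the sources used here. Near-equal array medians were taken as normalization between arrays, and none was added. A single gene was named by 21789 probe sets, several genes by 1621 and no gene by 12146, with symbols of the array annotation updated by RefSeq gene identifiers (GRCm38.p6).

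Groups came from the titles. limma 3.58.1 in R 4.3.3 fitted group alone with empirical Bayes variances to all 19938 genes, two-sided, with Benjamini-Hochberg adjustment and a threshold of 0.05. Standard errors are limma's. Single genes were also compared by exact permutation of the 252 possible group assignments (smallest possible p = 0.00794). The fit was tested on simulated data. The replicate numbers of the titles were checked as pairs: the correlations of same-numbered embryos' deviations ran from -0.246 to 0.238, so they were not used as pairs.

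The 42 genes, the other lists and the alternatives were chosen with earlier results of these data known, and lists are described by counts and medians with no test. Values in every embryo are given for the 10 genes with the smallest p, the gene with the smallest p of each role and genes with a positive difference. From each other list up to 4 genes with the smallest p are named. The alternatives were each embryo left out, the replicate block, other variance priors, array weights, other scalings, a filter on dim genes, averaged probe sets, another threshold and a pan-neuronal or thalamus covariate. Motif matches were counted once per gene, and the promoters of Mcm5 and Mcm6 are exceptions to the rule of showing those of genes given in every embryo.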

Additional observations from a re-analysis of the deposited data

Results flagged for a closer look

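Dixon's ratio, the gap between the outermost embryo and its neighbour over the range of its group, was computed for the 42 genes and their mean in both groups, and chance alone passes its 95% critical value of 0.71 in about 1 in 20 groups. Of 86 groups 6 passed it, and in all 6 the embryo was control embryo 5, at the high end. The mean of the 42 genes was 8.11 there, against 7.91 in the next control (ratio 0.815). For Chaf1b it was 8.19 against 7.80 (ratio 0.775), for Mcm4 8.47 against 8.22 (0.771), for Dut 8.14 against 7.90 (0.738), for Ccne1 7.52 against 7.10 (0.73) and for Mcm7 9.58 against 9.37 (0.719). No transgenic embryo passed the ratio for any of the 42 genes. The groups share the same arrays, the genes vary together, and their mean is made of the same genes. The 6 are thus not separate results, and their number cannot be set against the rate of 1 in 20.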

How the results depend on the processing

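None of the 42 genes passed in any of 20 alternatives (smallest adjusted p = 0.301, for Gins1 without transgenic embryo 4). Of 840 single-gene values 34 changed sign, none of them called. Some alternatives could not change a sign, as given below. Without 1 embryo, the genes called over all genes numbered 7 to 58 against 21, the replication genes with an unadjusted p under 0.05 numbered 0 to 21 against 8, and Orc1 ran from -0.10 to 0.041, Mcm10 from -0.14 to 0.021, Rrm1 from -0.093 to 0.020 and Gins3 from -0.13 to 0.0013. With the replicate number as a block, 2 genes were called over all genes and 13 of the 42 had an unadjusted p under 0.05; same-numbered embryos were the best-correlated match in 0 of 5 cases. Array weights called 39 genes and put Orc1 at 0.012, and a threshold of 0.1 called 55. With the pan-neuronal covariate 92 genes were called and 2 of the 42 had an unadjusted p under 0.05, and Orc1 read 0.081, Mcm3 0.014, Mcm6 0.021, Mcm10 0.039, Lig1 0.020, Rrm1 0.046 and Uhrf1 0.026. With the thalamus covariate 0 genes were called, 0 of the 42 had an unadjusted p under 0.05, 22 were lower and the median was -0.0048; there Orc1 read 0.16, Mcm3 0.12, Mcm6 0.12, Chaf1a 0.099, Mcm10 0.092, Gins3 0.090, Cdc6 0.070, Mcm7 0.064, Lig1 0.064, Pola2 0.058, Ccne1 0.041, Gins4 0.033, Uhrf1 0.023, Pold1 0.011, Fen1 0.0092, Rrm1 0.0086, Dut 0.0085, Gins2 0.0012 and Rfc5 0.00067. Both list means used as covariates also differed between the groups, so these fits cannot tell covariate and group apart. The cause of these changes was not tested. The share of all genes with an unadjusted p under 0.05 was computed only for the fit of all embryos by group alone. The counts of the 42 in the other fits thus have no background beside them. Quantile normalization and median centring changed no sign among the 42. Trend and robust variances, leaving out the dimmest 40% of genes, the replicate block and the threshold of 0.1 leave each difference as it is. No sign could change in these. Averaging probe sets could move only Pcna and Tk1, the genes with a second probe set, and changed neither sign. The count of gene and transgenic embryo pairs below all controls ranged from 101 to 114 when 1 control was left out.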
